A study of Mus musculus with 12 samples.

Results

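Complement and coagulation factors are the 2 linked sets of plasma proteins, most of them made by hepatocytes, that mark microbes for destruction and form clots. A list of 40 mouse genes was followed, 21 of complement and 19 of coagulation. A gene counted as measured where the platform annotation gave a probe set its symbol and no other, and of several such probe sets the one with the highest log2 mean across the 12 arrays was used. By this rule 36 genes were measured, 18 of each set, among 18193 genes in all. C3, Cfd and Cpb2 had no probe set named in the annotation table used, and C4b only one that it shares with C4a, so these 4 genes were not analysed here.

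The samples were pregnant liver (day 16 of gestation), virgin liver, pregnant lung (day 16) and virgin lung of female NOD/SCID mice, 3 arrays in each of the 4 groups. NOD/SCID mice, in every group alike, lack mature T and B cells, and they were 8 to 10 weeks old when the experiments began. Each array measured RNA pooled from 2 mice, taken from tissue ground in liquid nitrogen, so that every cell type of the organ and its blood contributed. The design asked what pregnancy changed in each organ.

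Complement is started by antibody bound to C1q (classical route), by mannose-binding lectins (lectin route) or by spontaneous turnover of C3 that factor B amplifies (alternative route), and all routes end in the terminal components C5 to C9, which assemble into a pore in the target membrane. Clotting starts when factor VII meets tissue factor, or when factor XII is activated on a surface, and runs through factors X and V to thrombin, which turns fibrinogen into fibrin. Factors II, VII, IX and X and the anticoagulant proteins C and S need vitamin K for the carboxylation of their Gla domains. In human pregnancy the plasma levels of fibrinogen and of factor VII are known to rise and that of protein S to fall.

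The tissues matched their labels. The mean log2 value over 13 measured hepatocyte markers was 13.58 to 13.61 in pregnant liver, 13.43 to 13.51 in virgin liver, 4.47 to 4.89 in pregnant lung and 4.46 to 4.59 in virgin lung. That over 7 measured lung epithelium markers was 12.49 to 12.56 in pregnant lung and 12.51 to 12.57 in virgin lung, against 4.46 to 4.64 in pregnant liver and 4.55 to 4.56 in virgin liver. The correlation of log2 values between arrays of the same group lay between 0.993 and 0.997. Poly-A spike-in RNA, which is added before labelling, averaged 11.8 to 12.3 on the log2 scale on 10 arrays but 5.33 on pregnant liver pool 3 and 4.95 on virgin liver pool 3. These 2 arrays, 1 of each state, stand apart in that signal, and liver changes are therefore also given within pools 1 and 2 and within pool 3. The number of arrays limits the precision, and p-values measure the spread between pools. A gene was called where its limma p, adjusted by Benjamini-Hochberg over all 18193 genes, was under 0.05.

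C9, C8a, F7, F10 and Pros1 passed the test in liver under every alternative setting run, and their promoters are shown so that the genes can be set beside each other at the sequence level. Windows were the 250 bases upstream of a start given by RefSeq (GRCm38.p6), 5′ to 3′ on the gene's strand. The runs printed lie at chr15:6445096-6445345 for C9 (plus strand), chr4:104876488-104876648 for C8a (minus strand), chr8:13025784-13026033 for F7 (plus strand), chr8:13037058-13037307 for F10 (plus strand) and chr16:62854057-62854306 for Pros1 (plus strand). The F7 window lies within the span of the F7 gene record, which starts further upstream. The last 89 bases of the C8a window lie within the C8a gene record, so its first 161 bases are printed. The C9, F10 and Pros1 windows end where their gene records begin. Capitals mark matches, on either strand, to TTCNNNGAA (the core bound by STAT proteins), TTGCNNCAA (a C/EBP core), AGGTCA (a nuclear receptor half-site) and GTTAAT (an HNF1 half-site).
C9: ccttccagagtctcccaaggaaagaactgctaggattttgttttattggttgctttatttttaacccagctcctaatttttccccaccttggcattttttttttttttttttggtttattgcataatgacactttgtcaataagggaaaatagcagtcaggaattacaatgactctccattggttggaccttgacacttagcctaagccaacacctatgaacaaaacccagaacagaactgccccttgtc
C8a: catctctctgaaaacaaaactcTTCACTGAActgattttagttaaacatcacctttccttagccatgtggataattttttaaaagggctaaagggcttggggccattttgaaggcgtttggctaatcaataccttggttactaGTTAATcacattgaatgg
F7: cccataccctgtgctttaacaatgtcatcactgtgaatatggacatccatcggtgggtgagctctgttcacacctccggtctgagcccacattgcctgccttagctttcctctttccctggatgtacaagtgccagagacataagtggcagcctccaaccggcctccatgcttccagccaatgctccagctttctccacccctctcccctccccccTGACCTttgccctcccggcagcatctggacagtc
F10: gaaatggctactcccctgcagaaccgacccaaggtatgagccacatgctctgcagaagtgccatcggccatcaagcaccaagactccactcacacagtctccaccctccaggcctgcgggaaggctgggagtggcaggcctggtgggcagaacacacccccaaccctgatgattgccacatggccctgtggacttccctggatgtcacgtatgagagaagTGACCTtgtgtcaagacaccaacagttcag
Pros1: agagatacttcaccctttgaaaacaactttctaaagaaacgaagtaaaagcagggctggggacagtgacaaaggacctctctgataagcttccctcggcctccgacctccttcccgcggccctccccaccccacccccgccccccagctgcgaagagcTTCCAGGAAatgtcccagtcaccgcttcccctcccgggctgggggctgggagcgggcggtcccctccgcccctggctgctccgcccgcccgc
The C9 window held none of the 4 motifs. The F7 and F10 windows each held the half-site AGGTCA, read as TGACCT on the strand shown. The C8a window held GTTAAT and a STAT core, and the Pros1 window held a STAT core.

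Windows were given for 28 of the 36 measured members. AGGTCA stood in 9 of the 28 (F5, F2, Fgg, C8b, C1qc, F7, F10, C6 and Mbl2), against 14% of all 32851 promoter windows of this length. Among the members with a window it stood in 4 of 8 that rose in liver, namely F5, F2, F7 and F10. It stood in 0 of 2 that fell and in 5 of 18 that were not called. GTTAAT stood in 9 of 28 (C4bp, F13b, Hc, Fga, Fgb, C8b, C8a, Vtn and Cfp) against 6.43% of all windows. By call these were 2 of 8 that rose, 0 of 2 that fell and 7 of 18 not called. The STAT core stood in 6 of 28 (Fga, Fgb, C8a, Masp2, Pros1 and F9) against 7.02%, and the C/EBP core in 2 of 28 (Fga and C6) against 1.74%. A match is a run of letters and not a shown binding site. AGGTCA and GTTAAT were added after the sequences had been read, so their counts are no test of these motifs.

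In pregnant mice 34 of the 36 were higher in liver than in lung, 17 of 18 in each set, and the same count held in virgin mice. All 36 differences passed the test in both states. Over all genes, 37.2% were called higher and 34.4% lower in pregnant liver than in pregnant lung, and 34.4% higher and 34.3% lower in virgin liver than in virgin lung. The median liver minus lung difference was 5.46 in pregnant and 5.05 in virgin mice for complement, and 8.64 and 8.29 for coagulation, on the log2 scale. In bulk tissue fewer cells of a type and less RNA per cell cannot be told apart.

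**Figure D1:**
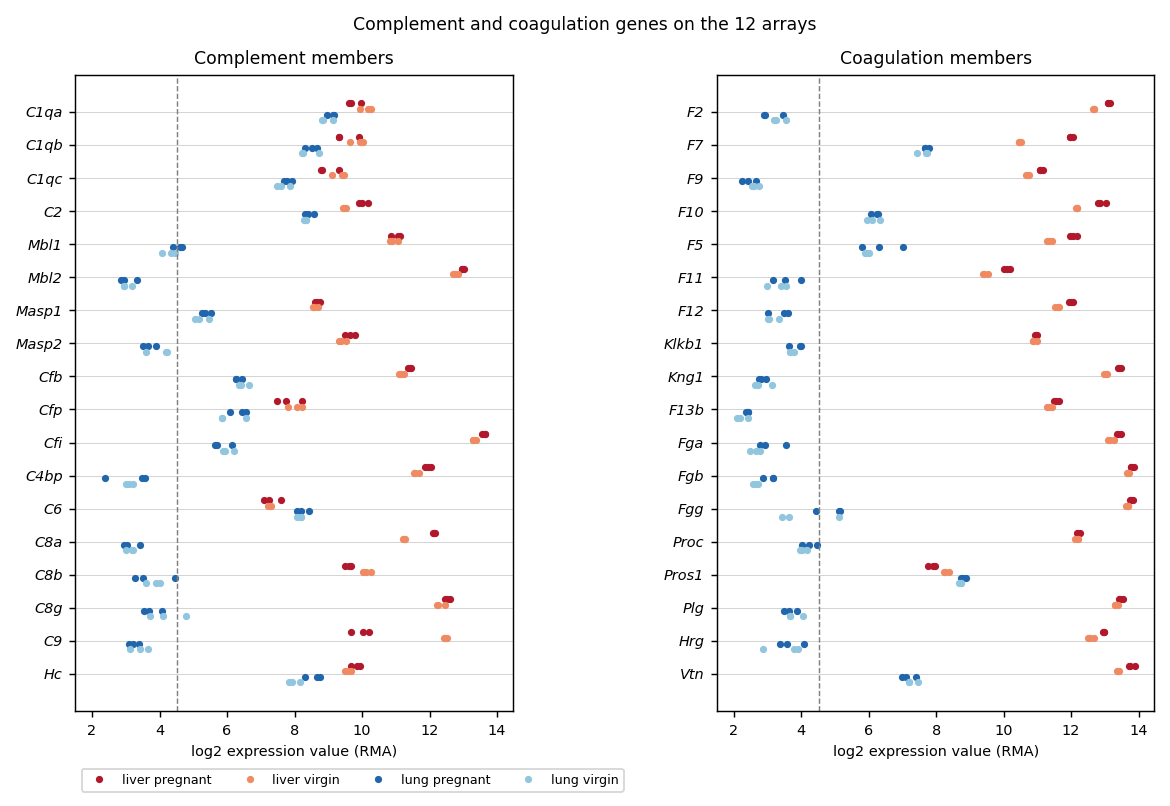
Log2 expression value (horizontal axis) of each measured complement and coagulation gene on each of the 12 arrays, 1 point per pool, with the median of all probe sets as a dashed line at 4.53. Liver pools lie far to the right of lung pools for most genes, except C6 and Pros1, which lie further right in lung.

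Fgb, the beta chain of fibrinogen, differed by 10.74 ± 0.095 between pregnant liver and pregnant lung and by 11.03 ± 0.095 between virgin liver and virgin lung (log2, SE, limma adjusted p = 1.1e-17 and 1.28e-17). Kng1 (kininogen), Fga (fibrinogen alpha) and F2 (prothrombin) differed by 10.58, 10.33 and 10.02 in pregnant mice. The lung means of these 4 genes, from 2.64 to 3.33, lay below the median of all probe sets, so these distances rest on the liver levels and have no rank among themselves. The C1q chains, which tissue macrophages make, had narrow distances. C1qa, C1qb and C1qc were higher in liver by 0.66, 1.01 and 1.18 in pregnant mice and by 1.19, 1.48 and 1.68 in virgin mice. C2, a serine protease of the classical route, was higher in liver by 1.59 and 1.16 at the probe set used. Its further probe sets lay wider apart, with pregnant means of 9.60 in liver against 7.44 in lung, and 9.87 against 7.79. Their virgin means were 9.38 against 7.40, and 9.56 against 7.64.

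C6, a terminal component, and Pros1, which encodes protein S, ran the other way. C6 had log2 values of 7.23, 7.09 and 7.61 in pregnant liver against 8.44, 8.06 and 8.19 in pregnant lung, a difference of -0.92 ± 0.13 (SE, limma adjusted p = 1.79e-05). In virgin mice it had 7.23, 7.26 and 7.31 in liver against 8.19, 8.08 and 8.19 in lung, a difference of -0.89 (adjusted p = 2.45e-05). Every liver pool lay below every lung pool of the same state. Pros1 differed by -0.93 ± 0.087 in pregnant mice (adjusted p = 2.55e-07) and by -0.42 ± 0.087 in virgin mice (adjusted p = 0.000643). Protein S is known to be made by endothelial cells as well as by hepatocytes.

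In lung 15 of the 36 members had group means at or above 4.53, the median of all probe sets, in both states. They were the C1q chains, C2, C6, Hc, Cfb, Cfp, Cfi and Masp1 of complement, and F5, F7, F10, Pros1 and Vtn of coagulation. For the other members the lung value lay below that median in at least 1 state. The further probe sets of Masp1, at lung means of 3.08 to 4.26, and a further probe set of F10, at 3.54 and 3.13, lay below that median as well. In liver all 36 lay above it, with group means from 7.31 to 13.61 for complement in pregnant mice and from 7.87 to 13.81 for coagulation.

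With pregnancy, 12 of the 36 members changed in liver, 10 of them higher and 2 lower. Over all genes 13.6% were called, 6.02% higher and 7.62% lower. Among the 18 coagulation members there were 8 rises and 1 fall, with 9 not called. Among the 18 complement members there were 2 rises and 1 fall, with 15 not called. The median change was 0.39 for coagulation and 0.15 for complement, against -0.0083 over all genes, and 17 of 18 coagulation members had a positive value. The 3 pregnant pools did not overlap the 3 virgin pools for 16 coagulation and 9 complement members, while 28% of all genes were so separated. Of the 12 changes, those of C9 and F7 were 2-fold or more.

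**Figure D2:**
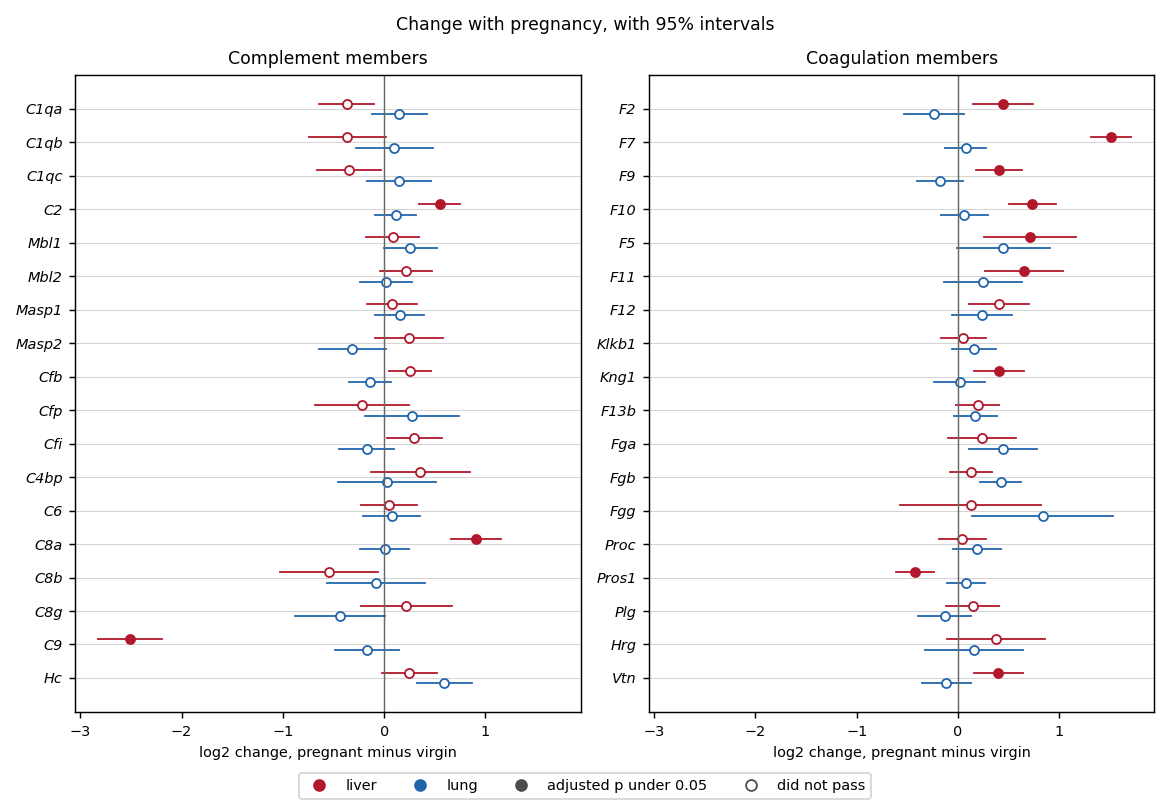
Log2 change of each measured member, pregnant minus virgin, in liver and in lung, with 95% intervals from the fit to all 12 arrays. Filled points have an adjusted p under 0.05, which 12 members reached in liver and 0 in lung, and C9 stands alone at -2.51.

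F7 encodes factor VII, the protease that starts clotting once it binds tissue factor, and it showed the largest rise of the set. Its log2 values were 11.96, 11.96 and 12.05 in pregnant liver against 10.52, 10.46 and 10.44 in virgin liver. The pools of each state lay close to each other and far from those of the other state. The change was 1.51 ± 0.093 (log2, SE, limma adjusted p = 1e-07, 3 pools in each group), a 2.86-fold rise that ranked 86 among the 1096 genes that rose in liver. It was 1.47 within pools 1 and 2 and 1.61 within pool 3.

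F10 encodes factor X, which joins the 2 starts of clotting and cuts prothrombin. It had 12.80, 12.87 and 13.04 in pregnant liver against 12.18, 12.16 and 12.17 in virgin liver, and no pregnant pool came near a virgin one. The change was 0.73 ± 0.11 (adjusted p = 0.000385), or 1.66-fold. Its 2 further probe sets gave 0.70 and 0.73 and passed as well, at adjusted p = 0.000387 and 0.00107 over all single-symbol probe sets, of which 9.99% were called. F7 and F10 are neighbours on chromosome 8, 1.5 kb apart in GRCm38.p6. The 95% interval of the F7 change, 1.31 to 1.71, did not overlap that of F10, 0.50 to 0.97.

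The other vitamin K-dependent procoagulants rose by less. F9, factor IX of the intrinsic route, had 11.08, 11.08 and 11.16 in pregnant liver against 10.71, 10.66 and 10.74 in virgin liver, a change of 0.40 ± 0.11 (adjusted p = 0.0216). F2 had 13.15, 13.10 and 13.08 in pregnant liver against 12.67, 12.64 and 12.68 in virgin liver, a change of 0.44 ± 0.14 (adjusted p = 0.0493). The groups did not overlap for either gene. All 4 procoagulants of this class thus passed, with a median change of 0.59. F9 passed in 3 of the 6 fits that left out 1 liver array and F2 in 0 of 6, where its adjusted p fell short although its direction held.

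F5 encodes factor V, the cofactor of factor Xa. It had 12.04, 11.97 and 12.19 in pregnant liver against 11.36, 11.43 and 11.27 in virgin liver, a change of 0.71 ± 0.21 (adjusted p = 0.0397). The groups were well apart, and its second probe set gave 0.73 (adjusted p = 0.0135). Pools 1 and 2 gave 0.61 and pool 3 gave 0.91. It passed in 0 of the 6 fits without 1 liver array. Its SD between pools was 0.11 in pregnant and 0.079 in virgin liver, but 0.62 in pregnant and 0.060 in virgin lung. With the 6 liver arrays alone its limma adjusted p was 0.00339.

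The contact group starts clotting on surfaces and releases bradykinin. F11, factor XI, had 10.18, 10.02 and 10.09 in pregnant liver against 9.53, 9.39 and 9.41 in virgin liver and rose by 0.65 ± 0.18 (adjusted p = 0.0262). Kng1, the kininogen that bradykinin is cut from, had 13.46, 13.43 and 13.39 in pregnant liver against 13.06, 13.04 and 12.96 in virgin liver and rose by 0.40 ± 0.12 (adjusted p = 0.0329). Pregnant and virgin pools did not overlap for F11 or Kng1, and a second Kng1 probe set gave 0.46 (adjusted p = 0.0449). F12, factor XII, had a value of 0.40 at an adjusted p of 0.0725. Klkb1, prekallikrein, lies 4.63 kb from F11 and had 10.96 ± 0.030 in pregnant liver and 10.90 ± 0.059 in virgin liver (SD over 3 pools each), a difference of 0.05 with an interval of -0.17 to 0.27. F11 passed in 2 of the 6 fits without 1 liver array and Kng1 in 0. With the 6 liver arrays alone the limma adjusted p was 0.00426 for F11 and 0.0312 for Kng1.

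Vtn encodes vitronectin, an adhesive plasma protein that stabilises the plasminogen activator inhibitor and blocks the terminal complement pore. It had 13.76, 13.72 and 13.88 in pregnant liver against 13.35, 13.38 and 13.43 in virgin liver, groups that did not overlap. The rise was 0.40 ± 0.11 (adjusted p = 0.0311), and 0.64 at its second probe set (adjusted p = 0.00103). At the first probe set it passed in 0 of the 6 fits without 1 liver array.

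Pros1 was the only coagulation member that fell. Protein S is the cofactor of activated protein C and also binds the complement inhibitor C4b-binding protein. Its log2 values were 7.95, 7.77 and 7.89 in pregnant liver against 8.26, 8.39 and 8.23 in virgin liver. Every pregnant pool lay below every virgin one, and the change was -0.42 ± 0.087 (adjusted p = 0.00504), or 1.34-fold lower. It was -0.47 within pools 1 and 2 and -0.33 within pool 3. Proc, which encodes protein C itself, had 12.21 ± 0.046 in pregnant liver and 12.17 ± 0.050 in virgin liver (SD over 3 pools each), a difference of 0.04 with an interval of -0.19 to 0.28.

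**Figure D3:**
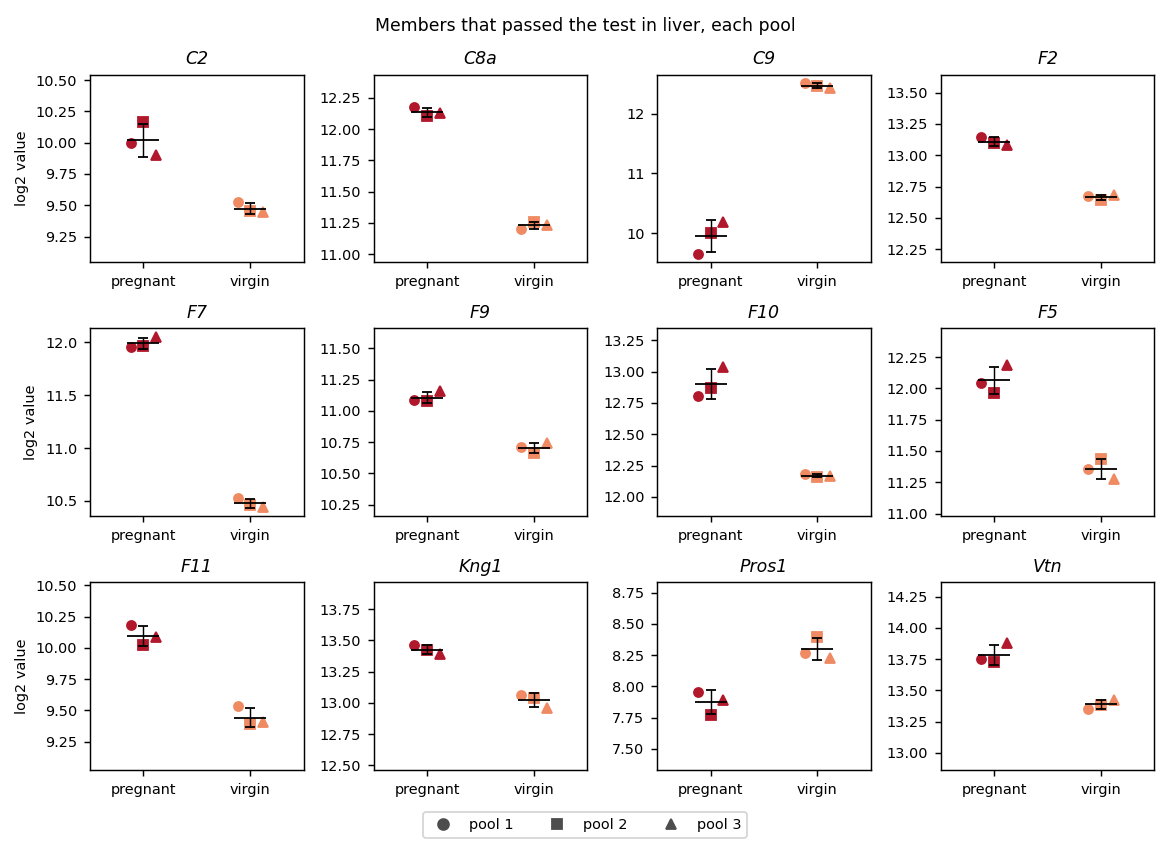
Log2 value of each of the 12 members that passed the test in liver, for pregnant and virgin pools, with the mean and SD over 3 pools as black lines. Panels have their own vertical range. In all 12 panels the pregnant and virgin pools do not overlap, but these members were chosen by the test on the same arrays. Over all genes 28% were so separated in liver.

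The genes of the clot itself and of its removal did not pass. Fga, Fgb and Fgg, the 3 fibrinogen chains, had values of 0.24, 0.13 and 0.12 in liver at adjusted p of 0.375, 0.438 and 0.856. Their liver means were high, from 13.17 for Fga in virgin mice to 13.81 for Fgb in pregnant mice. Whether changes are compressed at such high signal was not tested. Fga had log2 values of 13.37, 13.37 and 13.49 in pregnant liver against 13.15, 13.08 and 13.28 in virgin liver. Fgb had 13.78, 13.79 and 13.86 in pregnant liver against 13.70, 13.66 and 13.67 in virgin liver. The pregnant pools lay slightly above the virgin pools for each of the 3 chains. F13b, the carrier subunit of the fibrin cross-linking factor XIII, had 0.19 and Plg, plasminogen, 0.14. Hrg, histidine-rich glycoprotein, which binds plasminogen and heparin, had 0.38 (adjusted p = 0.314).

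The fit to all 12 arrays shares 1 spread per gene between organs. For the coagulation members the median SD between pools was 0.0514 in pregnant and 0.0517 in virgin liver, but 0.213 in pregnant and 0.163 in virgin lung. With the 6 liver arrays alone 11 coagulation and 4 complement members were called, against 8.56% of all genes. The members added were F12 (adjusted p = 0.0350), Hrg (0.0458) and C8b (0.0130), and none of the 12 was lost.

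Of the 6 terminal components measured C8a rose, C9 fell and 4 did not pass. C9, which polymerises to form the pore, showed the largest change of all members. Its log2 values were 9.66, 10.01 and 10.19 in pregnant liver against 12.51, 12.46 and 12.43 in virgin liver. The virgin pools were tightly grouped, and the pregnant ones spread more widely and lay far below them. The change was -2.51 ± 0.15 (log2, SE, limma adjusted p = 6.04e-08, 3 pools in each group), a 5.70-fold fall that ranked 9 among the 1386 genes that fell in liver. It was -2.65 within pools 1 and 2 and -2.24 within pool 3.

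C8a, the alpha chain of the component that precedes C9 in the pore, rose. It had 12.17, 12.10 and 12.13 in pregnant liver against 11.20, 11.26 and 11.23 in virgin liver, and the groups were far apart. The change was 0.91 ± 0.11 (adjusted p = 0.000109), or 1.87-fold, and it was the same within pools 1 and 2 (0.91) and within pool 3 (0.90). C8b, the beta chain, lies 11.1 kb from C8a on chromosome 4. It had 9.61, 9.48 and 9.66 in pregnant liver against 10.03, 10.25 and 10.11 in virgin liver, so that every pregnant pool was lower, yet its value of -0.55 ± 0.22 had an adjusted p of 0.133 (0.0130 with the 6 liver arrays alone). The intervals of C8a, 0.66 to 1.15, and of C8b, -1.03 to -0.06, did not overlap. C8g, the gamma chain, had 0.22 at an adjusted p of 0.558, C6 had 0.05 and Hc had 0.25 (adjusted p = 0.232).

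C2 was the other complement gene that rose. It had 10.00, 10.16 and 9.90 in pregnant liver against 9.53, 9.45 and 9.44 in virgin liver, groups that did not overlap, a change of 0.55 ± 0.095 (adjusted p = 0.00143). This rests on 1 of 3 probe sets. The other two gave 0.23 and 0.30 and did not pass (adjusted p = 0.305 and 0.111). The mean of the 3 probe sets passed, at 0.36 (adjusted p = 0.0168). With probe sets of a shared-sequence suffix left out, C2 had 0.23 at an adjusted p of 0.274.

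The C1q chains had negative values in liver. C1qa had 9.62, 9.66 and 9.98 in pregnant liver against 9.94, 10.26 and 10.16 in virgin liver, a value of -0.37 ± 0.13 (adjusted p = 0.0690). C1qb and C1qc had -0.36 and -0.35 (adjusted p = 0.206 and 0.139), and for all 3 chains pregnant pool 3 lay within the range of the virgin pools. Within pools 1 and 2 the values were -0.46, -0.52 and -0.45, and within pool 3 they were -0.18, -0.05 and -0.15. Without pregnant liver pool 3 all 3 chains passed, at -0.48, -0.56 and -0.52 (adjusted p = 0.0225, 0.0371 and 0.0206). That fit drops the pregnant pool with the highest values. Without both arrays of liver pool 3 no chain passed, and C1qb and C1qc passed in no other liver fit. The 15 macrophage markers had a median value of -0.26 in liver, 1 of them called (Timd4, lower by 0.64 on the log2 scale), and their mean level was 8.09 to 8.42 in pregnant and 8.28 to 8.48 in virgin liver. The part of macrophage RNA in the C1q values was not tested.

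**Figure D4:**
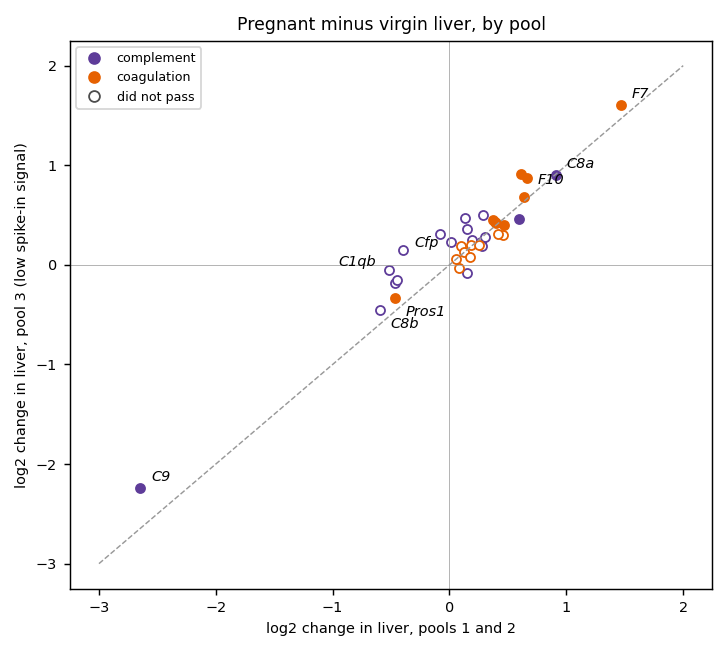
Log2 change in liver, pregnant minus virgin, within pools 1 and 2 (horizontal axis) and within pool 3, the pair of arrays with low spike-in signal (vertical axis), for the 36 measured members. Filled members, chosen by the test on these same arrays, have the same sign on both axes, and the dashed line is that of equal change. C9 had -2.65 and -2.24 and C1qb -0.52 and -0.05, and C6, Cfp, Masp1 and Proc differ in sign between the axes.

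None of the lectin and alternative route genes passed in liver. Mbl1 and Mbl2, the mannose-binding lectins, had 0.09 and 0.21, and their proteases Masp1 and Masp2 had 0.08 and 0.24. The further probe sets of Masp1 had values from -0.27 to 0.37 and that of Masp2 had 0.38, and none passed. Cfb, factor B of the alternative route, lies 0.087 kb from C2 and had 11.41, 11.36 and 11.46 in pregnant liver against 11.09, 11.15 and 11.24 in virgin liver, groups that did not overlap, with a value of 0.25 ± 0.097 (adjusted p = 0.103). Cfp, properdin, which leukocytes make, had -0.22. The inhibitors Cfi, the protease that inactivates C3b and C4b, and C4bp, which binds C4b, had 0.30 and 0.36 (adjusted p = 0.149 and 0.348), with pregnant pools above virgin pools for both. The sign differed between pools 1 and 2 and pool 3 for 4 members (C6, Cfp, Masp1 and Proc), none of them called.

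In lung 0 of the 36 members were called by limma, where 0.594% of all genes were. An unadjusted p under 0.05 was reached by 1 complement and 3 coagulation members, and by 9.87% of all genes. The complement values lay between -0.43 and 0.59 with a median of 0.05, and the coagulation values between -0.23 and 0.84 with a median of 0.16. The pregnant pools were apart from the virgin pools for 1 complement and 2 coagulation members, against 18.4% of all genes.

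Hc, which encodes complement C5, came nearest in lung. It had 8.76, 8.31 and 8.66 in pregnant lung against 8.18, 7.84 and 7.93 in virgin lung, and the lowest pregnant pool lay just above the highest virgin pool. Its value of 0.59 ± 0.13 had an adjusted p of 0.0558, and it passed under 5 other settings (0.0129 to 0.0478) and in the fits without virgin lung pool 1 (0.0488) or pregnant lung pool 2 (0.0284). NOD strains are known to carry a deletion in Hc that leaves them without circulating C5, so the probe set reports a transcript and not a working protein.

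The fibrinogen chains had the other 3 low p-values in lung, at low signal. Fgb had 2.87, 3.17 and 3.17 in pregnant lung against 2.66, 2.71 and 2.58 in virgin lung, a value of 0.42 ± 0.095 (adjusted p = 0.0710). Fga had 2.93, 3.54 and 2.78 in pregnant lung against 2.67, 2.77 and 2.47 in virgin lung (adjusted p = 0.299), and for both genes the pregnant pools lay above the virgin ones. Fgg had 5.15, 5.13 and 4.44 in pregnant lung against 5.13, 3.65 and 3.44 in virgin lung, a value of 0.84 ± 0.32 (adjusted p = 0.356), and virgin pool 1 lay with the pregnant pools. Without that array the Fgg value was 1.37 and passed (adjusted p = 0.00702). The array was singled out by its own Fgg value, and Fgg passed in no other lung fit. The Fga and Fgb values lie below the median of all probe sets, and the hepatocyte marker mean was 4.47 to 4.89 in pregnant and 4.46 to 4.59 in virgin lung, with 1 of its 13 markers called (Serpina1b, 0.66). Of the 12 neutrophil markers S100a9 was called in lung (1.07, adjusted p = 0.0186), and 11 had a positive value, with a median of 0.59. The mean level of these markers was 7.25 to 8.32 in pregnant and 6.98 to 7.23 in virgin lung. Of the 11 adipocyte markers Lipe was called (0.86, adjusted p = 0.0349), with a mean level of 4.48 to 4.94 in pregnant and 4.43 to 4.70 in virgin lung. None of the 12 endothelial and platelet markers was called by limma, and their mean level was 8.39 to 8.74 in pregnant and 8.23 to 8.27 in virgin lung. An unadjusted limma p under 0.05 was reached by 3 hepatocyte, 6 neutrophil, 2 adipocyte and 4 endothelial and platelet markers. Over all genes 9.87% reached it in lung, and 0.594% were called. The part of these cells in the lung values of the members was not tested.

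The change in liver was also set against the change in lung. The difference, liver change minus lung change, passed for 6 of the 36 members, where 6.71% of all genes passed. It was positive for C8a, F7, F9 and F10 and negative for C9 and Pros1. F7 had 1.44 ± 0.13 (SE, limma adjusted p = 1.33e-05), with a lung value of 0.08, although its lung level of 7.70 ± 0.065 in pregnant and 7.62 ± 0.16 in virgin mice was well above the median of all probe sets. Pros1 had -0.51 ± 0.12 (adjusted p = 0.0246) with a lung value of 0.08, and it too was well detected in lung, at 8.80 ± 0.075 and 8.72 ± 0.034. F10 had 0.67 ± 0.15 (adjusted p = 0.0167), with lung means of 6.19 and 6.13. A further F10 probe set had lung means of 3.54 and 3.13, below the median of all probe sets, with changes of 0.70 in liver and 0.41 in lung. Another had lung means of 4.79 and 4.87, with changes of 0.73 and -0.07. With the probe sets of each gene averaged, the F10 difference was 0.59 (adjusted p = 0.00336). C8a, C9 and F9 had differences of 0.90, -2.34 and 0.58 (adjusted p = 0.00382, 9.26e-06 and 0.0321). Their lung means, between 2.45 and 3.40, lay below the median of all probe sets, so these differences rest on the liver values. Of 22 alternative fits, C8a, C9 and F7 passed in all 22, F10 in 20, Pros1 in 14 and F9 in 10. With 1 of the 12 arrays left out, Pros1 passed in 6 fits and F9 in 2.

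Genes that act on the same pathways were counted from further lists, beside the 13.6% of all genes called in liver. Of 29 measured regulators, receptors and other components of complement 10.3% were called: 1 rose in liver (Cd59a, which blocks the terminal pore, 0.36, adjusted p = 0.0205) and 2 fell. These were Fcna, a ficolin of the lectin route (-0.59, adjusted p = 0.0147), and C1s1, the protease of the C1 complex (-0.49, adjusted p = 0.00460). Of 32 measured inhibitors, receptors and other partners of coagulation 34.4% were called, 9 of them higher and 2 lower. A2m, a broad protease inhibitor, rose by 6.62 ± 0.12 (means of 10.41 in pregnant and 3.79 in virgin liver, where the virgin mean lay below the median of all probe sets and the size is uncertain), and Vwf, the platelet-binding carrier of factor VIII, by 2.48 ± 0.15 (7.73 and 5.25). Gas6, a vitamin K-dependent relative of protein S, fell by 1.20 ± 0.14 (7.29 and 8.49), and Serpina5, the protein C inhibitor, by 1.03 ± 0.12 at low signal (3.21 and 4.23). No gene of these 2 lists was called in lung by limma, where 10 and 8 had an unadjusted p under 0.05, beside 9.87% of all genes.

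Of 4 measured genes of vitamin K-dependent carboxylation, Ggcx, the carboxylase, fell in liver by 0.39 ± 0.12 (adjusted p = 0.0451) and the others did not pass. Of 17 measured hepatocyte transcription factors and cytokine receptors 17.6% were called, and 3 rose: Lifr by 1.73, Il6ra by 1.32 and Ghr by 1.03. No gene of these 2 lists was called in lung either, where 2 and 6 had an unadjusted p under 0.05.

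Marker lists were counted beside the liver changes in the same way, with 13.6% of all genes called. Of the 13 hepatocyte markers 2 rose (Asgr1 by 0.88 and Ahsg by 0.37) and their median value was 0.03. Of 12 neutrophil markers 3 rose (S100a9 by 1.28, Ngp by 1.89, and S100a8), with a mean level of 5.84 to 6.24 in pregnant and 5.32 to 5.35 in virgin liver. Of 12 endothelial and platelet markers Ppbp rose by 2.02 and Kdr fell by 0.30, with a median value of 0.02 and a mean level of 6.94 to 7.03 in pregnant and 6.73 to 6.91 in virgin liver. This list joins endothelial and platelet genes, and 6 values were positive and 6 negative. The endothelial genes Pecam1, Cdh5, Tek and Emcn had -0.34, -0.18, -0.24 and -0.01, but Stab2 and Clec4g had 0.38 and 0.06. The platelet genes Pf4, Itga2b, Gp9 and Gp5 had 0.60, 0.13, 0.08 and -0.16. Of 7 pancreas markers 2 rose and 2 fell (Clps and Cpa1 rose by 0.70 and 0.39, Cela1 fell by 1.35 and Cela2a fell by 0.87). The part of these cells in the liver changes was not tested.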

How the data were processed

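RNA of lung and liver from pregnant and virgin NOD/SCID mice was measured on 12 one-colour arrays, 3 pools per group. The deposited values are log2 expression values per probe set, which the authors computed with RMA from the affy package, per the submitters' processing notes. RMA corrects background, normalizes between arrays and summarises probes, so that values are comparable between arrays for a probe set and compressed near background. The notes give no versions, and which arrays were normalized together is not given in the sources used here. Besides 64 controls, which were dropped, there were 45037 probe sets, of which 34945 had a single gene symbol, 932 several and 9160 none. Each gene was represented by its brightest single-symbol probe set on average, giving 18193 genes, 9010 of them with over 1 probe set.

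A model of the 4 group means was fitted in R 4.3.3 with limma 3.58.1 to every array (8 residual and 5.6 prior degrees of freedom), with no filter on dim genes. Contrasts were pregnant minus virgin in each tissue, liver change minus lung change, and liver minus lung in each state. A Benjamini-Hochberg adjusted p under 0.05 over all genes was the threshold, and the fit was tested on simulated data. Replicates are pools of different mice, per the labels. Pool numbers were not taken to pair pregnant with virgin samples. Deviations of liver pools with the same number correlated at 0.108, -0.110 and 0.0918, and those of lung pools at -0.00631, 0.0155 and 0.0960. So few values cannot exclude a link between pools of the same number, and both low spike-in arrays carry number 3.

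The members, the further gene lists and the tests were chosen with earlier results of these data known. Every member is named, called members with each array's value, and the further lists by up to 4 called genes with the largest change. Promoter windows and gene positions are from RefSeq (GRCm38.p6). Alternatives changed 1 choice at a time: arrays of the tissue alone, dim probe sets removed, probe sets of a gene averaged, no suffixed probe sets, median centring, quantile normalization, a variance trend, pool number as a block, the low spike-in arrays as a block or left out, and each array left out. A pool block shared by both organs was added after seeing the data.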

Additional observations from a re-analysis of the deposited data

Results flagged for a closer look

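For 6 members the change with pregnancy differed between the organs, by limma's test of liver change minus lung change adjusted over all genes. The differences were 1.44 for F7, 0.90 for C8a, 0.67 for F10, 0.58 for F9, -0.51 for Pros1 and -2.34 for C9 on the log2 scale, each from 3 pools per group. For F7, F10 and Pros1 the probe set used was above the median of all probe sets in lung, at group means of 7.70, 6.19 and 8.80 in pregnant lung. A further F10 probe set lay below that median, at 3.54 in pregnant lung, with changes of 0.70 in liver and 0.41 in lung. Another lay above it, at 4.79, with changes of 0.73 and -0.07. For C8a, C9 and F9 the probe set was below that median, at 3.14, 3.23 and 2.45 in pregnant lung. The differences of C8a, C9 and F7 passed in all 22 alternative fits. That of F10 passed in 20 and missed with the pool number within each organ as a block (adjusted p = 0.0540) and without both low spike-in liver arrays (0.0574). That of Pros1 passed in 14, with an adjusted p of up to 0.0805, and that of F9 in 10, with up to 0.0807. With 1 array left out, Pros1 passed in 6 of 12 fits and F9 in 2 of 12.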

How the results depend on the processing

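No call changed direction under any alternative run. C8a, C9, F7, F10 and Pros1 passed in all 16 liver alternatives and C2 in 15. The coagulation calls in liver were the least stable: 9 as reported, 3 without both low spike-in liver arrays, and 3 to 5 when 1 liver array was left out, since F2, F5, Kng1 and Vtn passed in 0 of those 6 fits. Over all genes these fits called 1879 to 2541 in liver, against 2482. Complement calls in liver were 3, and 3 to 6 with 1 array left out, 6 without pregnant liver pool 3. Differences between organs numbered 4 for coagulation, 6 with a variance trend, 5 with dim probe sets left out or probe sets averaged, 2 without both low spike-in arrays and 2 to 4 with 1 array left out. They numbered 2 for complement, 4 with a variance trend and 2 to 5 with 1 array left out. In lung 0 members passed as reported. Complement had 1 with dim probe sets left out, the mean of probe sets, quantile normalization or a variance trend, and coagulation had 1 with dim probe sets left out, the mean of probe sets or a variance trend. With 1 array left out both had 0 to 1. Over all genes 108 were called in lung, 26 to 105 with 1 lung array left out, 207 with a variance trend and 70 with the pool number within each organ as a block. With the pool number as a replicate block, 7 coagulation and 3 complement members were called in liver and 1 complement member in lung. Pool numbers were not taken to pair pregnant with virgin samples, although both low spike-in liver arrays carry number 3. The labels do not say whether liver and lung pools of 1 number come from the same mice. Deviations of such pools correlated at -0.0369 to 0.106, and a replicate block shared by both organs, added after seeing the data, left 2 coagulation and 2 complement differences. Beyond these settings, the arrays of the liver alone gave 1557 called genes against 2482. Median changes in liver ranged over alternatives from 0.11 to 0.20 for complement and from 0.31 to 0.40 for coagulation. Where the count moved, the cause was not tested. Fits with arrays left out changed both how many and which arrays were used. Signal near background limits what lung values show.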

Other observations

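Of the 32 further coagulation genes 9 rose and 2 fell in liver with pregnancy, or 34.4%, where 13.6% of all genes were called. The genes below were named after their values were seen (limma, adjusted over all genes). Serpina10, the protein Z-dependent inhibitor of factor Xa, had means of 12.75 in pregnant and 11.96 in virgin liver, a rise of 0.79 ± 0.12 (SE, adjusted p = 0.000373). Serpind1, heparin cofactor II, rose by 0.59 (adjusted p = 0.0226), and Serpinf2, the inhibitor of plasmin, by 0.45 (adjusted p = 0.0206). Serpina5, the protein C inhibitor, fell by 1.03. Serping1, the C1 inhibitor, Serpinc1, antithrombin, Tfpi2 and Tfpi, the tissue factor pathway inhibitor, had 0.22, 0.16, 0.12 and 0.09 and did not pass (adjusted p = 0.136, 0.384, 0.590 and 0.678). Hgfac, a protease related to factor XII, rose by 0.64 (adjusted p = 0.00127), and Fgl1, a fibrinogen-like protein of hepatocytes, by 0.61 (adjusted p = 0.000461). Thbd, thrombomodulin, and F2r, a thrombin receptor, rose by 0.52 and 0.44 (adjusted p = 0.00190 and 0.00711).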
